A study of Mus musculus with 2 samples.

Results

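Secreted Wnt ligands and Wnt antagonists were followed through the cells of gonadal white adipose tissue (gWAT). The group holds 10 of the 28692 genes in the files: the ligand Wnt2, the secreted frizzled-related proteins Sfrp1, Sfrp2, Sfrp4, Sfrp5 and Frzb, the Wnt inhibitory factor Wif1, the Dickkopf genes Dkk2 and Dkk3, and the carboxypeptidase gene Cpz. They were listed by name and in part selected on these data: Sfrp2 and Cpz were included because their CPM, defined below, was higher in knockout fibroblasts. The difference between genotypes in fibroblasts is therefore described here and supports nothing.

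Single-cell RNA sequencing was done on the stromal vascular fraction (SVF) of gWAT, the cells that pellet after collagenase digestion, which are stromal, vascular and immune cells without the floating mature adipocytes. There was 1 library from male Adipo-Pgam1 KO mice, Adipoq-Cre+ with both Pgam1 alleles floxed, and 1 library from male littermate controls, which carried the same floxed alleles without Cre and which the labels call littermate wildtype. All mice were C57BL/6 and, by the labels, 13 weeks old, and the sources used here do not give the number of mice behind a library. The Adipoq promoter drives Cre in mature adipocytes, and fibroblast-like cells had 3 Adipoq UMIs for the control and 2 for the KO library. In this fraction the paper describes a fibroblast cluster rich in adipocyte markers, with a marked fall of Pgam1 in its KO counterpart. It proposes that these were preadipocytes in which Cre had removed Pgam1.

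Wnt ligands are lipid-modified glycoproteins that bind frizzled receptors and the co-receptors LRP5 and LRP6 and so keep β-catenin from being degraded, whereas other ligands signal through ROR receptors without β-catenin. Secreted frizzled-related proteins and WIF1 bind the ligand itself, and DKK proteins bind the LRP co-receptor. In adipose tissue, Wnt signaling through β-catenin is known to hold precursor cells back from becoming adipocytes, so antagonists made by stromal cells are part of the control of adipogenesis.

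The promoters of Sfrp2, Cpz and Dkk2 are shown first. Among the members measured in fibroblast-like cells, with the Schwann-like cells described below left out, these genes had the highest KO to control ratios. The windows are the bases before the RefSeq start in GRCm38.p6, read 5′ to 3′ on the gene's strand, cut where the GENCODE gene begins. Capitals mark matches to the TCF/LEF core CTTTGNT, the motif of the transcription factors that β-catenin joins, or to the TATA box TATAAA, both searched on both strands. Sfrp2 lies at chr3:83766321-83774316, Cpz at chr5:35502218-35525698 and Dkk2 at chr3:132085292-132180304 (GRCm38, GENCODE vM21), all protein-coding. The Sfrp2 window is chr3:83766071-83766320 on the plus strand, the Cpz window chr5:35525699-35525876 on the minus strand and the Dkk2 window chr3:132085042-132085291 on the plus strand.
Sfrp2: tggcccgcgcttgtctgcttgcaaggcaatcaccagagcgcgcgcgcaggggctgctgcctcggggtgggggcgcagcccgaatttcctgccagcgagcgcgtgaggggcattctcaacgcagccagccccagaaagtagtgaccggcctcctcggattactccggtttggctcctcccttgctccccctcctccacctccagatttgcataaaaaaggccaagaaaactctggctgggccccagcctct
Cpz: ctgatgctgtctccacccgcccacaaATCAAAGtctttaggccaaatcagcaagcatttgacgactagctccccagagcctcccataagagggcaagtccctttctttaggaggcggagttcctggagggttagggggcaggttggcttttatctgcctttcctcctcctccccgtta
Dkk2: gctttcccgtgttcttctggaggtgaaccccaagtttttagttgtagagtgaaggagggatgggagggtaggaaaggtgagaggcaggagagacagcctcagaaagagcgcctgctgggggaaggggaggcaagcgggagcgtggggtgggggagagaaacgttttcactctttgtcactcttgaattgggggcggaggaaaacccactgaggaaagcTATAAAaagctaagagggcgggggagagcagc
The Cpz window held 1 TCF/LEF core match, 217 bases before the start, and the Dkk2 window a TATAAA 26 bases before it. Windows were found for 7 of the 10 genes (Sfrp1, Sfrp4 and Dkk3 were missing), and of the 250 bases before the start in those 7, only Cpz held the TCF/LEF core and only Dkk2 and Wif1 the TATA box. Among 32841 RefSeq windows of the same 250 bases, 16.0% held the TCF/LEF core and 12.4% the TATA box. A match says only that the letters are there.

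The control library held 8522 barcodes with 42859406 UMIs (unique molecular identifiers, each one captured transcript) and the KO library 2730 barcodes with 13821581. After barcodes with fewer than 500 detected genes or over 10% mitochondrial UMIs, and likely doublets, were set aside, there were 3616 control and 937 KO cells, none with a barcode that occurred in both libraries. Fibroblast-like cells made up 786 control cells (21.7%) and 188 KO cells (20.1%), with a median of 12304 and 17595 UMIs per cell. Levels are CPM, the UMIs of a gene summed over a group of cells and scaled to the total UMIs of that group, and compare groups for 1 gene but not different genes. With 1 library per genotype no difference could be tested, and the 95% intervals given after each value cover counting error only.

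The control fibroblast-like cells fell into a progenitor state, a preadipocyte state and a cluster that scored above the cluster average for neither set of markers. The KO cells were placed among them. The progenitor state (68 control, 13 KO cells) expressed Dpp4, Pi16 and Cd55, markers of the interstitial precursors at the base of the adipose lineage. The preadipocyte state (570 and 140 cells) expressed Col15a1, Sparcl1 and Icam1, from a set of markers of committed preadipocytes. In the control, Col15a1 was at 1087 CPM there, 57.1 CPM in progenitors and 704 CPM in the remaining cluster. Sparcl1 had 1115, 194 and 972 CPM in the same order. Icam1 had 25.5, 24.1 and 55.1 CPM, so it did not set this state apart. The remaining cluster (147 and 28 cells) is called the Mfap4 cluster after its leading genes Chrdl1, Mfap4 and Col8a1. It did express progenitor markers: control Pi16 was at 723 CPM there, 1443 CPM in progenitors and 54.6 CPM in the preadipocyte state. Dpp4 had 77.0, 361 and 25.2 CPM in the same order. Pgam1, the gene deleted in adipocytes, did not differ beyond counting error in the preadipocyte state, with 760 and 254 UMIs and a KO to control log2 ratio of −0.02 (−0.23 to 0.19). The fibroblast cluster in which the paper reports lower Pgam1 was not delimited here, so this value does not bear on it.

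The 10 genes occupied different cells (plot of levels by group of cells). Sfrp1 was detected in most fibroblasts, Sfrp2 and Cpz were shared by mesothelial and some stromal cells, Sfrp4 marked the progenitor state, and Sfrp5 was found in Schwann-like cells. Dkk3 was outside the fibroblasts for the most part, with 11.4% of its control and 10.3% of its KO UMIs in fibroblast-like cells, against 92.9% and 93.3% for Sfrp1. Wif1 was almost absent, with 2 UMIs in the cells of both libraries together.

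**Figure D1:**
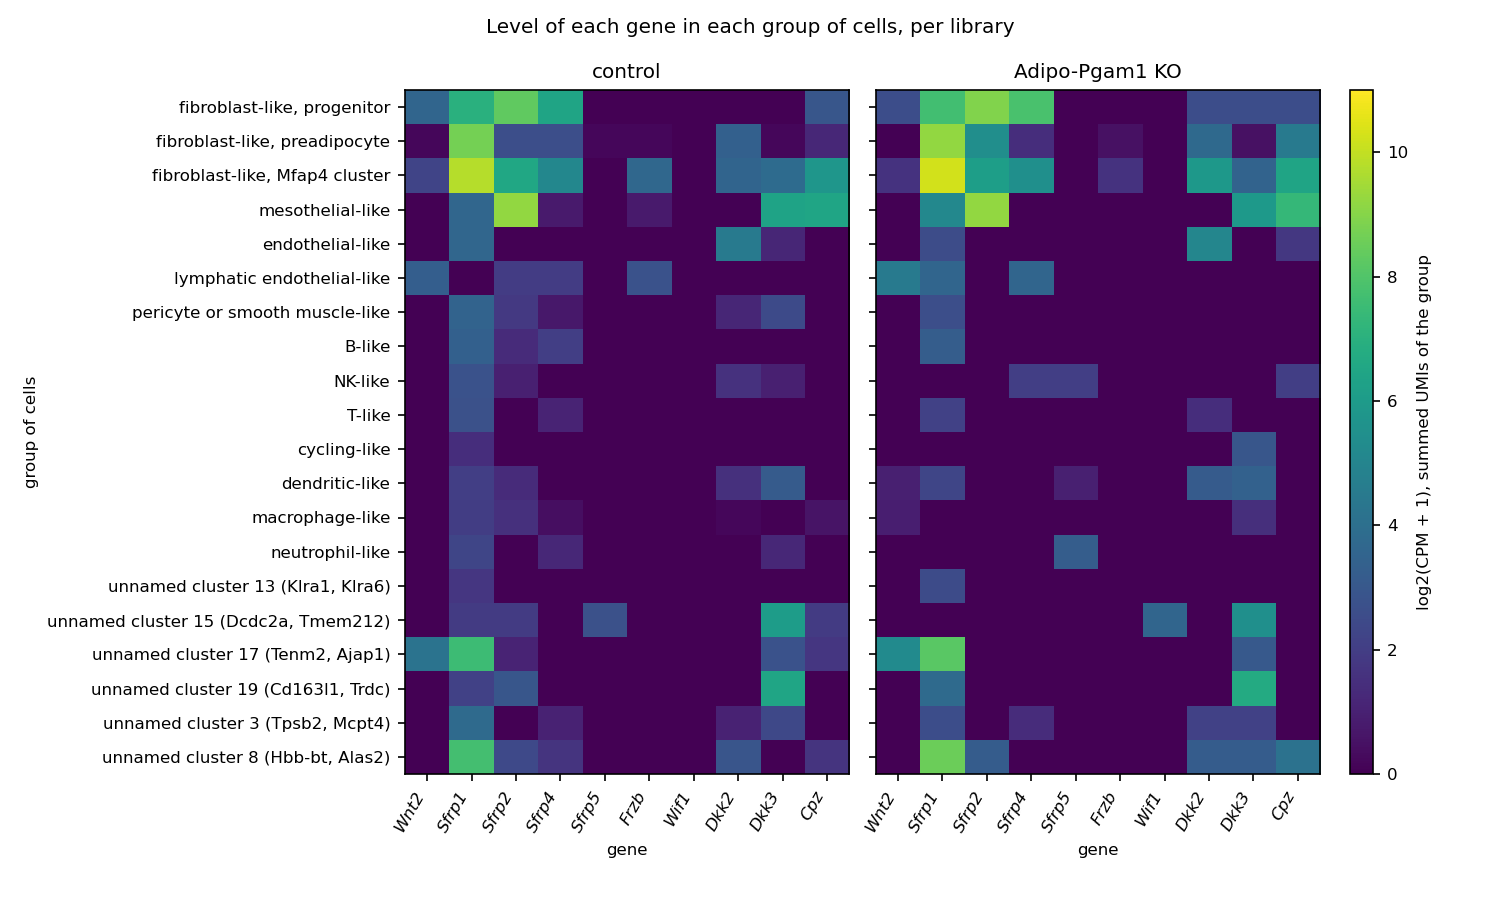
Level of the 10 genes in each group of cells, as log2(CPM + 1) by color, in the control (left) and the Adipo-Pgam1 KO library (right); rows are groups of cells and columns genes, to be compared within a column, and the few Schwann-like cells are not drawn. Among the groups drawn, in both libraries Sfrp1 is brightest in the Mfap4 cluster, Sfrp2 in mesothelial-like cells and Sfrp4 in the progenitor state.

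Wnt2, the only ligand among the 10 genes, signals through β-catenin. It was rare, with 36 UMIs in 30 control cells and 16 UMIs in 9 KO cells. In the control its level was 17.3 CPM (9.69 to 28.6) in an unnamed cluster led by Tenm2 and Ajap1 and 11.0 CPM (5.26 to 20.2) in the progenitor state, which did not differ beyond counting error, and 3.74 CPM (1.51 to 7.71) in the Mfap4 cluster. In the preadipocyte state there was 1 Wnt2 UMI in 570 control cells and none in 140 KO cells. In the KO library 10 of the 16 UMIs lay in the Tenm2 and Ajap1 cluster, at 37.2 CPM (17.9 to 68.5), 6 of them in 1 cell. Progenitors of the KO library held 1 Wnt2 UMI against 10 in the control, a log2 ratio of −1.11 with an interval from −6.55 to 1.70.

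Sfrp1, which binds Wnt ligands through a frizzled-like cysteine-rich domain, had UMIs in 79.3% of control and 90.0% of KO preadipocyte-state cells. At an equal depth of 2000 UMIs per cell these shares came to 44.2% and 52.5%. In T-like cells, which should lack the gene, 2.50% of control and 2.11% of KO cells held a UMI, at a median of 4372.5 and 6138 UMIs per cell. Within the control, Sfrp1 was at 887 CPM (845 to 931) in the Mfap4 cluster and 415 CPM (400 to 431) in the preadipocyte state. The progenitor state had 127 CPM (105 to 153), and the intervals of these 3 levels lay apart. In the KO library the 3 groups had the same order, with 1205 CPM (1109 to 1307), 589 CPM (558 to 621) and 204 CPM (145 to 277). Schwann-like cells, described below with Sfrp5, had more, but only 1 such control cell was kept (99 UMIs). The 14 found in the control before doublets were set aside had 2981 CPM (2629 to 3367).

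The level of Sfrp1 was higher in the KO library in each of the 3 stromal groups, by log2 ratios of 0.44 (0.30 to 0.58) in the Mfap4 cluster, 0.50 (0.41 to 0.60) in the preadipocyte state and 0.68 (0.12 to 1.21) in the progenitor state. The difference was below 2-fold in each, and without the top cell of each library the progenitor value was 0.58 (−0.03 to 1.15). Within the preadipocyte state it was 0.20 (0.07 to 0.32) in the cells led by Mmd2 and Fndc5, 0.97 (0.80 to 1.15) in those led by Ttyh2 and Cxcl1, and 0.40 (0.13 to 0.68) in those led by Lect1 and Cbfa2t3. Sfrp1 was also higher in 2 unnamed clusters: by 0.64 (0.23 to 1.04) in the Tenm2 and Ajap1 cluster and by 0.82 (0.28 to 1.35) in a shallow cluster with hemoglobin genes, the latter 0.58 (−0.04 to 1.16) without the top cells.

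Sfrp2, a relative of Sfrp1 that is likewise secreted by stromal cells, had its highest level in mesothelial-like cells, the lining of the fat pad, with 590 CPM (551 to 632) for the control library and 603 CPM (518 to 698) for the KO library. These cells held 829 of the 1356 control UMIs, 194 of them in 1 cell, and 179 of the 406 KO UMIs, 69 of them in 1 cell. Progenitors followed, at 316 CPM (281 to 355) and 483 CPM (391 to 591), which in the KO library did not differ from mesothelial-like cells beyond counting error (log2 ratio 0.32, −0.049 to 0.69), and then the Mfap4 cluster at 92.5 CPM (79.3 to 107) and 70.6 CPM (48.9 to 98.7). The preadipocyte state of the control was lowest of these groups at 5.24 CPM (3.67 to 7.26), so control progenitors held 60.3 times its level (42.6 to 87.8). In the KO library that distance was 3.54 on the log2 scale (3.11 to 3.96), against 5.91 (5.41 to 6.46) in the control.

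The largest genotype difference of Sfrp2 lay in the preadipocyte state. There the control held 36 UMIs in 21 of 570 cells and the KO library 97 UMIs in 30 of 140 cells, or 5.24 CPM against 41.6 CPM (33.8 to 50.8), a ratio of 7.95 (5.37 to 12.0) and a log2 ratio of 2.99 (2.42 to 3.58). The cell with the most UMIs held 5 (control) and 15 (KO), and without both cells the log2 ratio was 2.97 (2.36 to 3.61). Among 9980 genes with enough UMIs in this state, Sfrp2 ranked 5 by the ratio of KO to control. Since Sfrp2 was chosen for its rise in KO fibroblasts, nothing is read from that rank. The log2 ratio was 0.61 (0.26 to 0.95) in progenitors, 0.39 (−0.03 to 0.78) there without the top cell of each library, and 0.03 (−0.21 to 0.27) in mesothelial-like cells.

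Taken over all fibroblast-like cells, Sfrp2 had 497 control and 226 KO UMIs, 51.4 CPM (47.0 to 56.2) and 74.0 CPM (64.7 to 84.3), and the log2 ratio was 0.53 (0.29 to 0.75). Of the control UMIs 92 were in 1 cell of the Mfap4 cluster, and without the top cell of each library the value was 0.61 (0.35 to 0.86). In that cluster the 34 KO UMIs were in 2 cells, 33 of them in 1, and the log2 ratio of −0.39 (−0.97 to 0.15) became −4.30 (−9.62 to −1.78) without the top cell of each library. Without the 10 cells richest in Sfrp2 in each library, the log2 ratio over all fibroblast-like cells was −0.029 (−0.42 to 0.35). Those 10 were a larger share of the 188 KO cells than of the 786 control cells. Without an equal share of the richest cells in each library, chosen after seeing the data, the log2 ratio was 2.21 (1.70 to 2.73). Sfrp2 was found in 78 control and 43 KO cells, and neither removal took equal parts of these. Nothing is therefore read from either value.

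Cpz encodes carboxypeptidase Z, an extracellular enzyme that carries a frizzled-like cysteine-rich domain and can bind Wnt ligands. In the control it was a gene of mesothelial-like cells, 86.2 CPM (71.5 to 103), and of the Mfap4 cluster, 54.0 CPM (44.0 to 65.6). The progenitor state had 6.59 CPM from 6 UMIs, and the preadipocyte state 1.31 CPM (0.60 to 2.49) from 9 UMIs in 5 of 570 cells. In the KO preadipocyte state there were 52 UMIs in 18 of 140 cells, 22.3 CPM (16.7 to 29.3), a ratio of 17.0 (8.32 to 39.3) and a log2 ratio of 4.09 (3.06 to 5.30). It ranked 3 among the 9980 genes by that ratio, and as Cpz was chosen in the same way as Sfrp2, nothing is read from this rank. The KO cell with the most Cpz held 16 UMIs, and without the top cell of each library the log2 ratio was 4.16 (2.90 to 5.69).

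Cpz was also higher in the KO library where it was already expressed, by log2 ratios of 0.66 (0.10 to 1.19) in the Mfap4 cluster and 0.91 (0.39 to 1.40) in mesothelial-like cells. These intervals reached below 0 once the top cell of each library was left out, at 0.47 (−0.16 to 1.08) and 0.55 (−0.07 to 1.12). Over all fibroblast-like cells there were 119 control and 94 KO UMIs, 12.3 CPM (10.2 to 14.7) and 30.8 CPM (24.9 to 37.7), a log2 ratio of 1.32 (0.92 to 1.72).

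**Figure D2:**
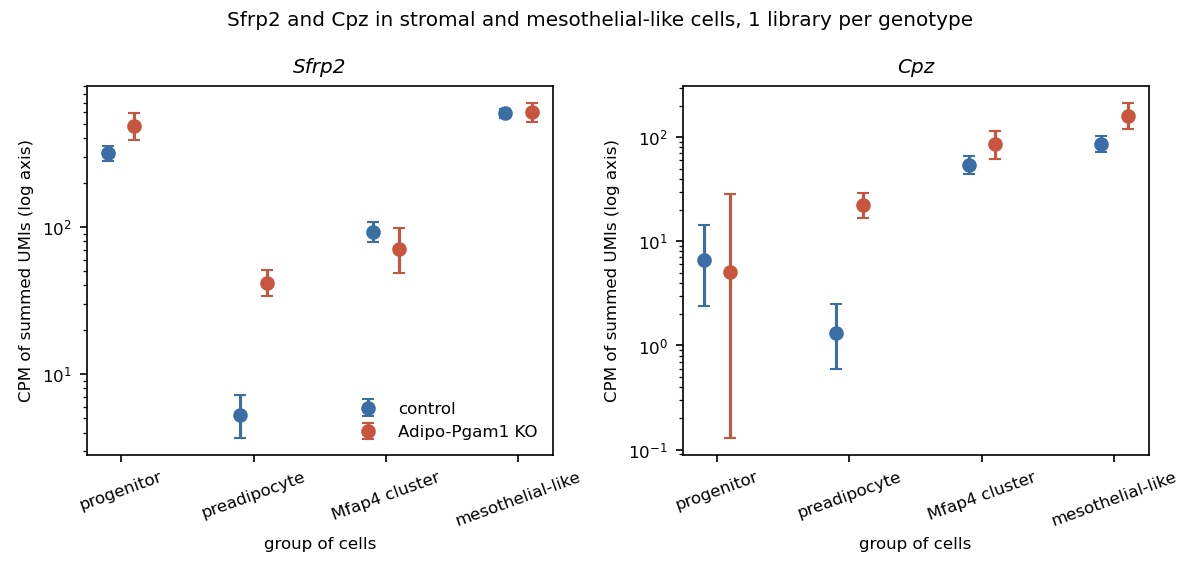
CPM of Sfrp2 (left) and Cpz (right) on a log axis in 3 stromal groups and mesothelial-like cells, with exact 95% Poisson intervals; blue points are the control and red points the Adipo-Pgam1 KO library. The libraries lie farthest apart in the preadipocyte state, 5.24 and 41.6 CPM for Sfrp2 and 1.31 and 22.3 CPM for Cpz.

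The higher Sfrp2 and Cpz of the KO preadipocyte state came from more cells with a UMI and from more cells with several (plot of UMIs per cell). The share of cells with Sfrp2 was 3.68% (2.29 to 5.58) in the control and 21.4% (14.9 to 29.2) with the knockout, and for Cpz 0.88% (0.29 to 2.04) and 12.9% (7.80 to 19.6). Cells with 4 or more Sfrp2 UMIs numbered 2 of 570 and 10 of 140, and those with 4 or more Cpz UMIs 0, where a limit of 3 cells allows a share of up to 0.526%, and 4. KO cells were sequenced deeper, with a median of 17883.5 against 12044 UMIs. With cells thinned to 2000 UMIs, Sfrp2 was found in 1.94% and 6.47% and Cpz in 0% and 4.32%. In the pooled T, B and NK-like cells, at a median of 4179 and 5790 UMIs, Sfrp2 was found in 0.35% (control) and 0% (KO) and Cpz in 0% and 0.54%.

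**Figure D3:**
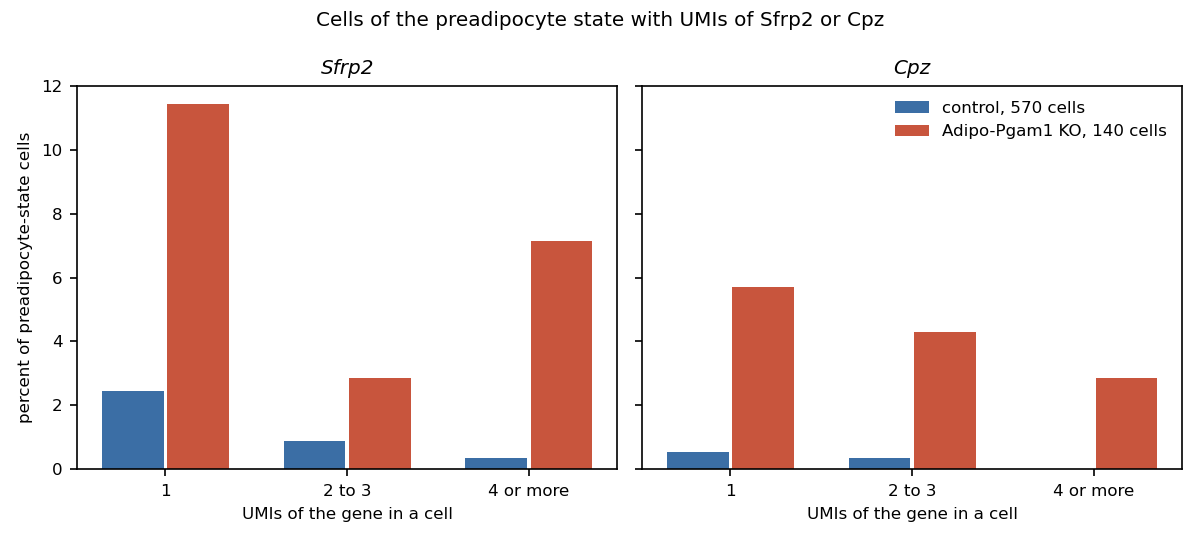
Percent of preadipocyte-state cells with 1, 2 to 3, and 4 or more UMIs of Sfrp2 (left) or Cpz (right), in the control (blue, 570 cells) and the Adipo-Pgam1 KO library (red, 140 cells); bars start at 0. Each of the 3 classes is larger in the KO library, up to 11.4% of cells with 1 Sfrp2 UMI against 2.46%.

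The cells that held both genes were few. Of the KO preadipocyte-state cells, 30 held Sfrp2, 18 held Cpz and 2 held both, and in the control 21, 5 and 0. The number expected for unrelated genes was not computed, so nothing is read from the overlap. Within the state, Cpz was almost limited to the cells led by Mmd2 and Fndc5, with 8 control and 49 KO UMIs there (log2 ratio 3.98, 2.89 to 5.27). Sfrp2 had 7 control and 50 KO UMIs there (4.20, 3.05 to 5.59) and 5 and 33 UMIs among the cells led by Lect1 and Cbfa2t3, the 33 in 4 cells. Among the cells led by Ttyh2 and Cxcl1 there were 24 and 14 Sfrp2 UMIs, a log2 ratio of 0.74 with an interval from −0.32 to 1.75.

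Markers of other cells also differed in the preadipocyte state. All 6 mesothelial markers were lower in the KO preadipocyte state, with 77 control and 4 KO UMIs in sum (11.2 and 1.72 CPM), and Msln, Upk3b, Krt19 and Upk1b were at 0 in the KO cells. The 7 macrophage markers were lower too, with 265 and 30 UMIs, whereas those of pericytes and smooth muscle summed to 98.8 CPM (control) and 158 CPM (KO), 2 of 7 higher. The 6 progenitor markers summed to 426 CPM (control) and 301 CPM (KO). Leading genes of the Mfap4 cluster, which also expresses Cpz, had log2 ratios of 2.88 (1.64 to 4.27) for Chrdl1, from 8 and 20 UMIs, 1.67 (0.47 to 2.88) for Col8a1, from 13 and 14, and 0.69 (−0.0069 to 1.35) for Mfap4, from 55 and 30, the last of which held 0. In progenitors, erythroid markers summed to 547 CPM (control) and 4249 CPM (KO), 4 of 5 higher, and all 6 mesothelial markers were at 0 in the KO cells. In the Mfap4 cluster erythroid markers summed to 6705 and 461 CPM, 0 of 5 higher, those of pericytes and smooth muscle to 295 and 81.0 CPM, 1 of 7 higher, and those of NK cells to 75 and 2 UMIs, 0 of 5 higher. The part of these genes in the ratios of the 3 stromal groups was not tested. The clock genes Nr1d1 and Dbp, chosen after their values were seen, were lower in the KO library, by log2 ratios of −2.81 and −2.34. The time of day at which the tissues were taken is not given in the sources used here, and its part in any ratio was not tested.

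Both ratios depended on where the preadipocyte state was drawn. The Mfap4 cluster, which carries Sfrp2 and Cpz in the control, could fall inside the state, and its part in these changes was not tested. With coarser clustering of the fibroblast-like cells (resolution 0.3) the state took in all 147 control and 28 KO cells of that cluster, and the log2 ratio was 0.96 (0.64 to 1.28) for Sfrp2 and 1.39 (0.97 to 1.80) for Cpz. A looser cell filter (at least 200 genes, at most 20% mitochondrial UMIs) brought in 141 and 27 of them and gave 1.26 (0.96 to 1.56) and 1.32 (0.90 to 1.73). A stricter filter (at least 1000 genes, at most 5%) brought in 113 and 20 and gave 1.10 (0.75 to 1.45) and 1.23 (0.77 to 1.69). Finer clustering (resolution 1.0) took in 28 and 1, with 0.95 (0.57 to 1.33) for Sfrp2 and 3.52 (2.65 to 4.49) for Cpz. A gate on Pi16 and Dpp4 UMIs gave 3.05 (2.42 to 3.72) and 2.52 (1.85 to 3.21). The interval lay above 0 in each of these 5 settings. Each setting used the same libraries, and both genes were chosen for their rise in KO fibroblasts, so nothing is read from this.

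Sfrp4, another secreted frizzled-related protein, was most abundant in progenitors, at 85.6 CPM (67.7 to 107) in the control, with 33.2 CPM (25.4 to 42.5) in the Mfap4 cluster and 5.24 CPM (3.67 to 7.26) in the preadipocyte state. The order in the KO library was the same, with opposite signs of the genotype ratio at its 2 ends. The preadipocyte state had 36 control UMIs in 26 cells and 4 KO UMIs in 3 cells, a log2 ratio of −1.61 (−3.56 to −0.13), which was −0.34 (−1.04 to 0.31) at resolution 0.3 and −0.31 (−0.98 to 0.31) and −0.44 (−1.20 to 0.26) under the looser and stricter filters. Progenitors had 78 control and 45 KO UMIs, a log2 ratio of 1.42 (0.86 to 1.97), but 35 of those 45 were in 1 of 13 cells, and without the top cell of each library the value was −0.45 (−1.57 to 0.51). Over all fibroblast-like cells the log2 ratio was 0.33 (−0.09 to 0.74), and −0.54 (−1.11 to −0.01) without the top cells.

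Sfrp5, a Wnt-binding antagonist that adipose tissue is known to secrete, had a fibroblast value that came from Schwann-like cells. Fibroblast-like cells held 1 control and 31 KO UMIs, all 31 of them in 7 cells that carried at least 3 of 6 Schwann cell markers such as Sox10. Schwann cells wrap peripheral nerves, which run through fat. The difference came with the doublet step: 14 control and 7 KO cells past the filter carried those markers, and the doublet scores removed 13 of the 14 and none of the 7. Counted before that step, Schwann-like cells held 63 control and 31 KO Sfrp5 UMIs, 725 CPM (557 to 928) and 670 CPM (455 to 951), a log2 ratio of −0.11 (−0.78 to 0.53). These cells were looked at after the values were seen. In them Sfrp1 was at 2981 CPM (2629 to 3367) for control cells and 1794 CPM (1429 to 2224) for KO cells.

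Frzb, also known as sFRP3, had 28 UMIs in 9 control cells and 5 in 3 KO cells. In the control, 22 of them lay in the Mfap4 cluster, at 11.8 CPM (7.38 to 17.8), and 19 of the 22 in 1 cell. Of the 5 KO UMIs, 3 were in Schwann-like cells. The log2 ratio over fibroblast-like cells was −0.66 (−2.40 to 0.75), and without the Schwann-like cells, with 23 and 2 UMIs, −1.84 (−4.97 to 0.18). Wif1 was not detected in control cells and had 2 UMIs in 2 KO cells, both in an unnamed cluster led by Dcdc2a and Tmem212 that carries genes of ciliated cells such as Foxj1.

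Dkk2, which binds LRP5 and LRP6 and so blocks the co-receptor, was highest in the control in endothelial-like cells, 21.8 CPM (12.7 to 34.9), and had like levels in the Mfap4 cluster and the preadipocyte state, 10.7 CPM (6.53 to 16.5) and 9.46 CPM (7.30 to 12.1). No Dkk2 UMI was found in 68 control progenitors, where a limit of 3 UMIs is 3.29 CPM. In the KO library the Mfap4 cluster had 58.2 CPM (38.6 to 84.1), not beyond counting error of the 32.3 CPM (17.2 to 55.2) in endothelial-like cells, from 28 UMIs in 4 of 28 cells against 20 UMIs in 5 of 147, a log2 ratio of 2.44 (1.56 to 3.35). The preadipocyte state had 65 control and 29 KO UMIs, a log2 ratio of 0.40 (−0.29 to 1.05), with 17 of the 29 in 1 cell. Without that cell and the top control cell the value was −0.67 (−1.70 to 0.25). Over all fibroblast-like cells the log2 ratio was 1.11 (0.60 to 1.61), from 85 UMIs in 29 cells and 58 UMIs in 10 cells, and at most −1.32 when the 10 richest cells of each library were left out, which removed all the Dkk2 of the KO library.

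Dkk3, a divergent Dickkopf protein whose action on Wnt signaling is debated, had UMIs in many groups of control cells. Among groups with more than 3 UMIs it was highest there at 87.7 CPM (57.3 to 129) in a cluster led by Cd163l1 and Trdc, genes of γδ T cells, at 82.6 CPM (68.3 to 99.1) in mesothelial-like cells and at 67.0 CPM (43.0 to 99.7) in the ciliated-gene cluster, 3 levels that did not differ beyond counting error. The Mfap4 cluster followed at 13.4 CPM (8.65 to 19.7), not beyond counting error of dendritic-like cells at 7.87 CPM (5.09 to 11.6), and the preadipocyte state had 1 UMI. The KO library showed the same order, with 104 CPM (59.2 to 168), 60.6 CPM (35.9 to 95.8), 43.5 CPM (18.8 to 85.7) and 10.4 CPM (3.37 to 24.2), and 9.75 CPM (4.68 to 17.9) in dendritic-like cells. The genotypes differed by a log2 ratio of 0.24 (−0.76 to 1.19) in the Cd163l1 and Trdc cluster and −0.45 (−1.25 to 0.28) in mesothelial-like cells. In the ciliated-gene cluster all 8 KO UMIs were in 1 cell.

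Across all fibroblast-like cells, 9 of the 10 genes had at least 10 UMIs over both libraries and Wif1 did not. Of these 9, Cpz, Dkk2 and Sfrp5 were at least 2-fold higher in the KO library and none was 2-fold lower, where 3.92% of 12824 genes were 2-fold higher and 3.25% lower. Their median log2 ratio was 0.47, and that of all 12824 genes −0.09. Without the Schwann-like cells, 8 were measured, Cpz and Dkk2 were 2-fold higher and Frzb lower, against 3.22% and 3.17% of all genes. In the preadipocyte state, 5 were measured: Sfrp2 and Cpz were 2-fold higher and Sfrp4 lower, against 3.16% and 3.34% of 12134 genes. In progenitors 1 of 4 measured genes was 2-fold higher (Sfrp4, against 4.71% of all genes), in the Mfap4 cluster 1 of 7 (Dkk2, against 3.69%) and in mesothelial-like cells 1 of 4 (Sfrp1, against 4.71%). Since the members were chosen with this contrast known, nothing is read from these counts.

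**Figure D4:**
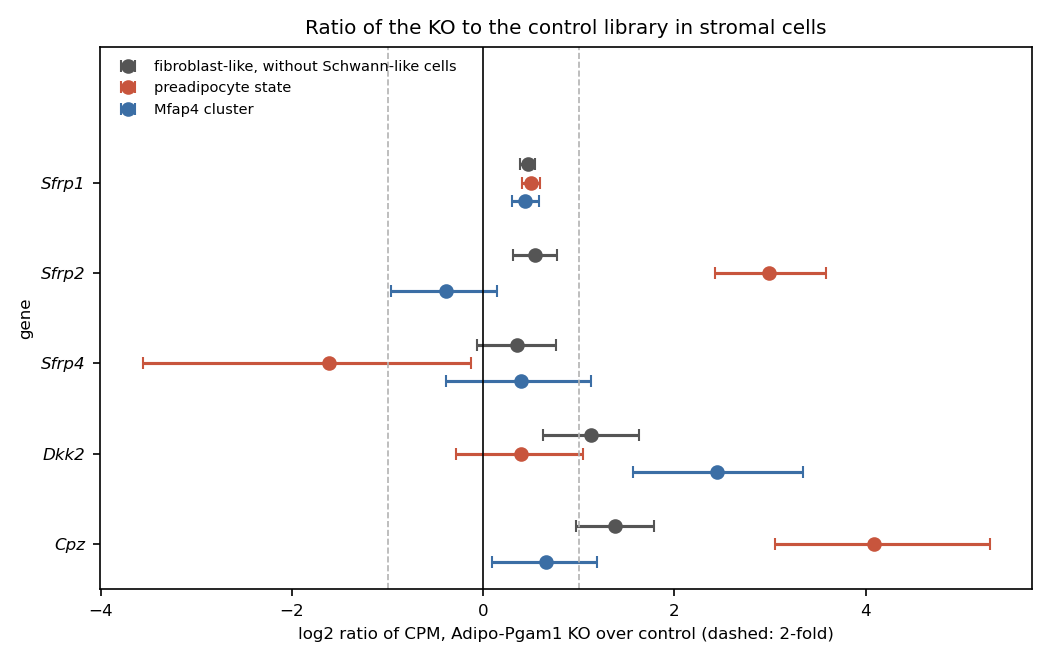
Log2 ratio of CPM, Adipo-Pgam1 KO over control, with exact 95% intervals, for the 5 genes measured with 10 or more UMIs in the preadipocyte state; gray is all fibroblast-like cells without Schwann-like cells, red the preadipocyte state and blue the Mfap4 cluster, and dashed lines mark 2-fold. Sfrp2 and Cpz are farthest right in the preadipocyte state (2.99 and 4.09) and Dkk2 in the Mfap4 cluster (2.44), while the 3 points of Sfrp1 lie together.

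Other genes of the Wnt pathway were taken from a list of 65 ligands, secretion factors, receptors, antagonists and targets. In fibroblast-like cells 33 of them had at least 50 UMIs over both libraries, of which 1 was 2-fold higher and 1 lower in the KO library. Their median log2 ratio was 0.01, and 4 intervals lay above and 6 below 0. No share of all genes was computed at the minimum of 50 UMIs, so nothing is read from the count past 2-fold. With a minimum of 10 UMIs, 37 were measured, and 4 were past 2-fold, against 7.17% of all genes.

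Among the ligands, Wnt4 was at 4.66 CPM (45 UMIs) and 15.7 CPM (48 UMIs), with a log2 ratio of 1.76 (1.14 to 2.37). Rspo3, an R-spondin that amplifies Wnt signals by sparing frizzled receptors, was measured at 34.4 CPM (332 UMIs) and 68.1 CPM (208 UMIs), with a log2 ratio of 0.99 (0.73 to 1.24). Wnt11, which acts without β-catenin, was lower at −0.51 (−0.98 to −0.08), and Wnt5a, another such ligand, had −0.05 (−0.21 to 0.11). The ligands thus lay on both sides of 0. Wls, the carrier that brings Wnt proteins to the cell surface, was lower by a small step, with a log2 ratio of −0.23 (−0.38 to −0.09).

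Of the receptors, Ror2, which binds WNT5A, was lowest, at 18.0 CPM (174 UMIs) and 6.55 CPM (20 UMIs), with a log2 ratio of −1.46 (−2.21 to −0.79), while its relative Ror1 had 0.09 (−0.18 to 0.35). Fzd1 and Fzd4 were lower at −0.39 (−0.63 to −0.16) and −0.31 (−0.48 to −0.13), and the co-receptor Lrp6 had 0.08 (−0.07 to 0.23). Intervals held 0 for most targets and feedback genes of β-catenin signaling: Axin2 had a log2 ratio of 0.24 (−0.13 to 0.61), although 0.55 (0.077 to 1.01) in the preadipocyte state alone, Ccnd1 0.05 (−0.41 to 0.49), Nkd1 0.12 (−0.50 to 0.71) and Ctnnb1, which encodes β-catenin, 0.07 (−0.07 to 0.22). Tcf7l1, a mostly repressive TCF factor, was lower at −0.33 (−0.53 to −0.14). The values over all fibroblast-like cells include the Schwann-like cells, which held 0 of the 174 control and 10 of the 57 KO UMIs of Ccnd1. In the preadipocyte state alone, Ccnd1 had −0.26 (−0.95 to 0.38).

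Among the listed antagonists only Sostdc1 was measured, and its KO UMIs lay in Schwann-like cells. Fibroblast-like cells had 0 control and 43 KO UMIs, all 43 in the Schwann-like cells. Before doublet removal those cells held 20 control and 43 KO UMIs, a log2 ratio of 2.01 (1.22 to 2.86). Fzd3 was counted 7 and 9 times, with a log2 ratio of 2.02 (0.43 to 3.68), with 3 of the 9 in Schwann-like cells. Sostdc1 and Fzd3 were below the minimum for naming and are named here after their values were seen.

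**Figure D5:**
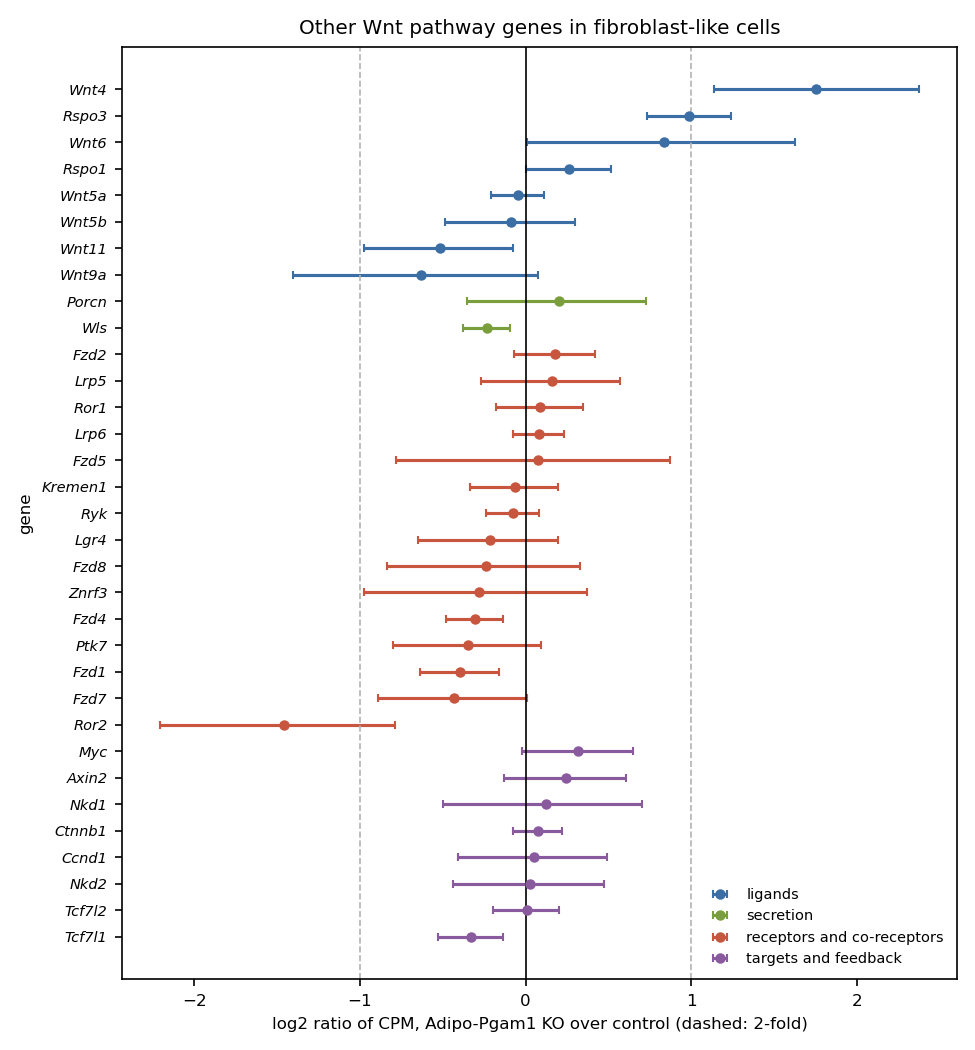
Log2 ratio of CPM, Adipo-Pgam1 KO over control, in fibroblast-like cells for the 33 other Wnt pathway genes with at least 50 UMIs, with exact 95% intervals and colors for their roles; dashed lines mark 2-fold. Wnt4 (1.76) and Ror2 (−1.46) lie beyond the dashed lines, and the targets and feedback genes lie between −0.33 and 0.32.

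The genes whose level followed each member most closely over 20 control groups of cells were named by Pearson's r of log2(CPM + 1) as a description, since the groups share a library and related cell types are not independent. Cyp1b1, Ssc5d and Svep1 were closest to Sfrp1 (r = 0.95, 0.94 and 0.93), and r over the same groups of the KO library was 0.83, 0.88 and 0.86. Tnfrsf11b, Nr1h4 and Nkain4 were closest to Sfrp2 (0.89, 0.87 and 0.87), with 0.83, 0.70 and 0.73 in the KO library. For Sfrp4 they were Adamts19, Adamts16 and Pi16 (0.91, 0.89 and 0.89), with 0.46, 0.88 and 0.70 in the KO library. Gpr39, Loxl4 and Prlr were closest to Cpz (0.96, 0.90 and 0.88), with 0.85, 0.86 and 0.64 in the KO library. Enpp6, Apln and Myrip were closest to Dkk2 (0.84, 0.81 and 0.80), with 0.55, 0.60 and 0.68 in the KO library. Dnajc6 and Haghl were among the closest to Dkk3 (0.78 and 0.74), with 0.55 and 0.17 in the KO library.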

How the data were processed

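Single-cell RNA sequencing of gWAT SVF was analyzed, 1 library per genotype. According to the submitters' processing notes, the authors used Cell Ranger 3.0.1, Seurat 3.1.5 and R 4.0.1 with mm10, and the deposited values are whole-number UMI counts per gene and barcode, not normalized. Reads come from transcript 3′ ends, so gene lengths were not used. Gene positions came from GENCODE vM21 (GRCm38) and promoters from RefSeq.

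Barcodes under 500 genes or over 10% mitochondrial UMIs were dropped, as were the highest Scrublet scores, 0.8% per 1000 barcodes. Cells were normalized to 10000 counts, log-transformed and clustered (2000 variable genes without the Wnt genes, 30 principal components, 20 neighbors, Leiden resolution 0.5). A cluster took a cell type name from a marker list when its mean z-score was above 0.5 and led the next by 0.75, with at least 3 markers detected and its leading genes not those of another type. Of 23 clusters, 17 were named and 6 were not. Fibroblast-like control cells were clustered again, and KO cells took the state of their 20 nearest control cells. Schwann-like cells (at least 3 of 6 markers) were kept apart from the stromal states.

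CPM values are a gene's summed UMIs in a group, scaled by that group's total. Intervals are exact 95% intervals (Poisson for levels, conditional binomial for ratios, Clopper-Pearson for shares). No p-value was computed. Where a count was 0, ratios and stated limits used 3 UMIs, or 3 cells, over the group. Ratios were counted for genes with at least 10 UMIs over both libraries, and ranks for those with at least 50. For these counts of genes past 2-fold, counts under 3 were set to 3. Named genes were the 10 members, pathway genes with at least 50 UMIs, and the 3 genes most alike to each member with at least 50 control UMIs, of which 1 is not reported here. The members, marker lists, pathway list and tests were chosen with earlier results of these data known. The ratio and its interval were tried on simulated counts with the depths of the preadipocyte state. These were Poisson counts, which the interval assumes, of genes with at least 50 control UMIs in that state. The trial therefore could not cover uneven cells, or genes as rare there as Sfrp2 and Cpz. Alternatives changed the filters, doublet step, clustering, states, scaling, cell weights and depth. Python 3.11.15, scanpy 1.11.5, leidenalg 0.10.2, scipy 1.17.1, R 4.3.3 and edgeR 4.0.16 (TMM factors only) were used.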

Additional observations from a re-analysis of the deposited data

Results flagged for a closer look

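For Sfrp4 the 2 libraries differed in opposite directions in 2 stromal states, which drew attention to it. The KO to control log2 ratio was 1.42 in the progenitor state and −1.61 in the preadipocyte state, a difference of 3.03 between the states. That difference was not tested, since there was 1 library per genotype. Of the 45 KO progenitor UMIs, 35 were in 1 cell, and without the top cell of each library the progenitor value was −0.45.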

How the results depend on the processing

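No paired analysis was possible because each genotype had 1 library. Log2 ratios of KO to control kept their sign under the filters, doublet step, clustering settings, seed and scaling tried for Sfrp1, Sfrp2, Dkk2 and Cpz over all fibroblast-like cells. Each setting used the same libraries, so the kept signs are a description only. Scaling by TMM or median-of-ratios factors shifted every ratio by 0.07. Without the 10 cells richest in the gene, which are a larger share of the smaller KO library, the fibroblast-like value was −0.029 for Sfrp2, at most −1.32 for Dkk2 and 0.89 for Cpz, and without the richest 5%, chosen after seeing the data, it was 2.21 for Sfrp2 and at least 5.07 for Cpz, where the removal took every control UMI, so that this value was fixed by the removal. For Sfrp2 it was 0.23 with cells thinned to 2000 UMIs and 0.78 with the control's shares of the stromal states, and for Cpz 1.86 as a mean over cells. In the preadipocyte state Sfrp2 had 0.96 at resolution 0.3, 0.95 at 1.0 and, among alternatives chosen after seeing the data, 2.27 with thinned cells, at least 5.26 without the richest 5% of cells, again because no control UMI was left, 1.26 with the looser and 1.10 with the stricter cell filter. Cpz had 1.39 at resolution 0.3, 2.52 with the gate, and 1.32 and 1.23 with the 2 filters. With thinned cells 1 member was past 2-fold in fibroblast-like cells against 3, and with a minimum of 50 UMIs 2 pathway genes were past it against 4.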
